A study of Mus musculus with 6 samples.

Results

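Neuregulins, their relative Hbegf and the ErbB receptors were measured in whole mouse hearts as 7 genes: Nrg1, Nrg2, Hbegf, Egfr, Erbb2, Erbb3 and Erbb4. They were chosen by name, out of 18193 genes that had at least 1 probe set of their own, and every probe set annotated to a single one of them was used, 17 in all. The study compared 3 hearts of EphB4 mutant mice with 3 hearts of wild-type mice, all of the strain given as C57B6, by hybridising RNA to Affymetrix Mouse 430.2 arrays. The title places it in work on ephrin-B2 of the heart muscle and the forming ventricular wall. The sample descriptions also began with the letters eM for mutant heart 3 and wild-type heart 3, and with eI for mutant hearts 1 and 2 and wild-type hearts 1 and 2. The meaning of the letters, the age of the mice, the kind of mutation and how the hearts were dissected are not stated in the labels used.

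ErbB receptors are receptor tyrosine kinases that signal in pairs. Nrg1 is made by the endocardium and acts on ErbB2 and ErbB4 of the neighbouring heart muscle, and mice without Nrg1, Erbb2 or Erbb4 fail to form trabeculae, the muscle ridges of the inner ventricular wall. ErbB2 binds no ligand of its own and ErbB3 has a weak kinase, so both depend on partners, and ErbB3 is needed in the mesenchyme of the cardiac cushions, from which the valves arise. Hbegf acts on EGFR and ErbB4, and mice without it, or with weak EGFR signalling, form thickened valves.

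The 6 arrays had close medians of log2 intensity, between 5.89 and 6.01. Ephb4 itself read 8.04 ± 0.11 in mutant hearts and 8.03 ± 0.18 in wild-type hearts (SD, n = 3 each; two-sided exact permutation p = 0.9), so the RNA level gave no check of the genotype labels. The hearts differed more by the letters than by genotype: of 27022 probe sets tested, 11.7% were called between eM and eI hearts and 0% between mutant and wild-type hearts (limma, adjusted p under 0.05). A sign of RNA quality moved with the letters. The 3-prime minus 5-prime difference of beta-actin control probes was 0.77 in mutant 3 and 0.51 in wild-type 3, the eM hearts, against 0.28 to 0.41 in the eI hearts. That of Gapdh separated them less, at 0.12 and 0.03 against -0.10 to 0.02. The 18S ribosomal RNA control read 10.48 in mutant 3 and 11.17 in wild-type 3, against 9.80 to 10.16 in the eI hearts. Xist, the X-inactivation transcript of female cells, read 6.73 in mutant 1 and 6.78 in mutant 3, against 11.75 in mutant 2 and 11.51 to 12.33 in the wild-type hearts, so sex was not balanced between genotypes. The part of RNA quality in the values below was not tested, and sex was followed through fits with the Xist level as a covariate. Precision was limited by the number of arrays, and whole hearts do not show whether a lower level means fewer cells of a type or less RNA per cell.

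Of the ligands, Hbegf and Nrg2 stood lower in mutant than in wild-type hearts at 1 probe set each without passing the test, and Nrg1 was close in both. Nrg1, on chromosome 8 (GRCm38.p6, chr8:31807452-32891609), had a single probe set, 1456524_at. It read 5.75, 5.68 and 5.91 in mutant hearts 1 to 3, against 5.69, 5.57 and 5.88 in wild-type hearts 1 to 3 (log2 intensity). The ranges overlapped almost fully, and the difference was 0.07 with a 95% confidence interval of -0.22 to 0.35 (limma, adjusted p = 0.9999; two-sided exact permutation p = 0.6).

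Nrg2, a related ligand that binds ErbB3 and ErbB4, lies on chromosome 18 and had 3 probe sets. At the brightest, 1447654_at, mutant hearts 1 to 3 read 5.61, 5.53 and 5.63, against 5.88, 6.09 and 5.64 in wild-type hearts 1 to 3. The groups did not overlap, but the eM heart of the wild type lay within 0.01 of the eM heart of the mutant, so the separation came from the eI hearts. The difference was -0.28 (interval -0.60 to 0.04; limma, adjusted p = 0.9999), with -0.42 among eI hearts and -0.01 between the eM hearts. Without wild-type 2 it was -0.17. Exact permutation gave p = 0.1, the smallest that 3 against 3 allows. The second tested probe set, 1444491_at, differed by -0.08 with overlapping groups, and the dim 1457283_at, not tested, by -0.11.

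Hbegf, also on chromosome 18, encodes a membrane-bound growth factor that is released by proteases. Its probe set 1418350_at read 7.47, 7.33 and 7.54 in mutant hearts 1 to 3, against 7.60, 8.02 and 7.89 in wild-type hearts 1 to 3. Every mutant heart lay below every wild-type heart, with wild-type 1 close above mutant 3, and the means were 7.45 ± 0.10 in mutant and 7.84 ± 0.21 in wild-type hearts (SD, n = 3 each). The difference was -0.39, or 1.31-fold lower (interval -0.72 to -0.07; unadjusted p = 0.0252, limma adjusted p = 0.9999; exact permutation p = 0.1), with -0.41 within eI and -0.35 within eM. The other probe set, 1418349_at, read 7.64, 7.70 and 7.62 in mutant hearts and 7.64, 7.81 and 7.77 in wild-type hearts. There the groups overlapped and the difference was -0.08 (interval -0.31 to 0.14), so the 2 probe sets of Hbegf gave the same direction but different sizes.

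**Figure D1:**
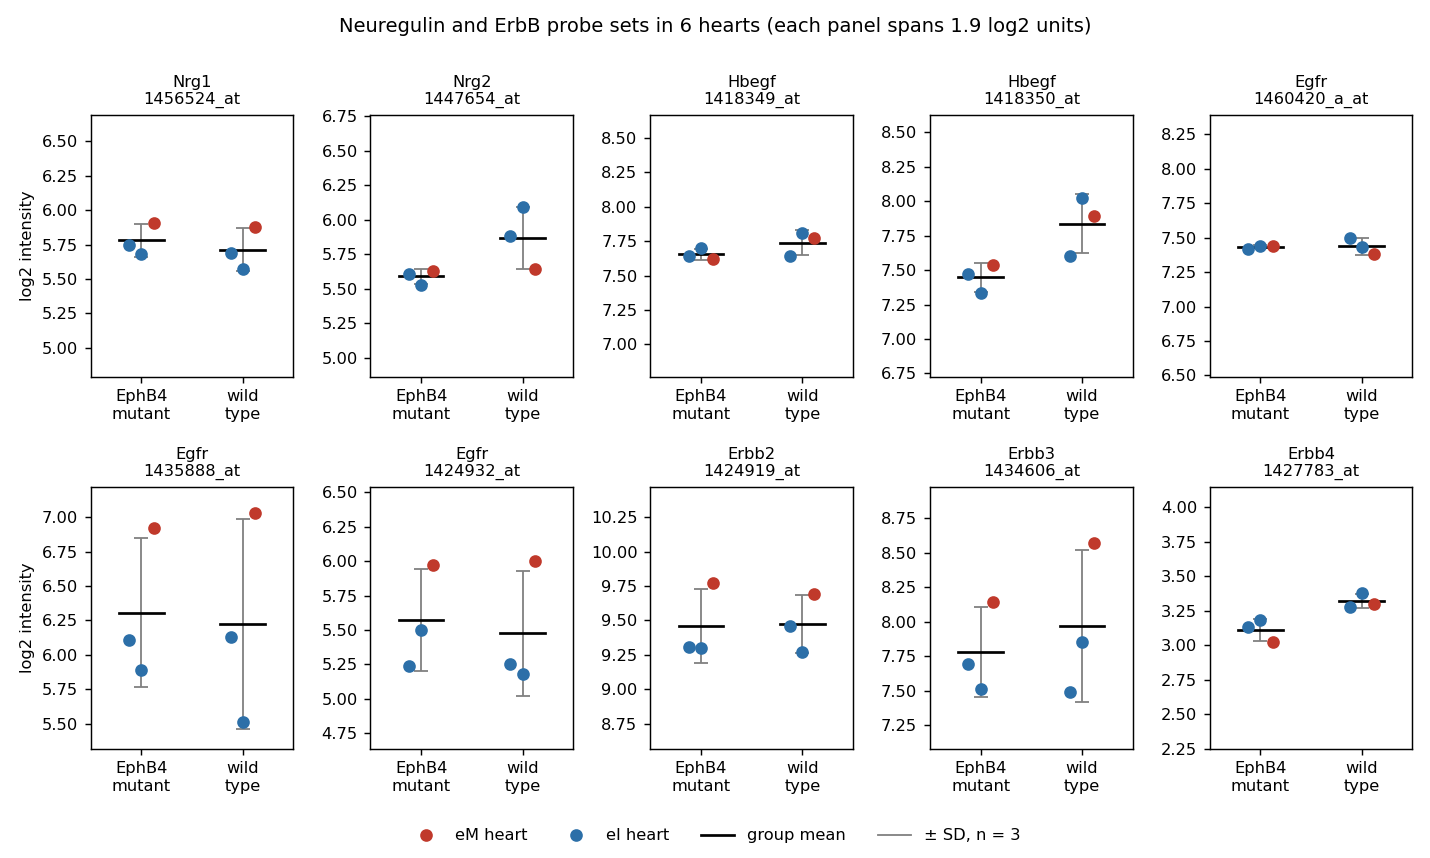
Log2 intensity of 10 probe sets of the 7 genes in each heart, with EphB4 mutant hearts left and wild-type hearts right in each panel, eM hearts in red and eI hearts in blue, and group means with SD (n = 3). In Hbegf 1418350_at and Nrg2 1447654_at the mutant hearts lie below the wild-type hearts, while in Egfr 1435888_at and 1424932_at, Erbb2 and Erbb3 the eM heart is the highest of its genotype.

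No tested receptor probe set differed between genotypes beyond the spread among hearts, which here includes the split by letters. With the letters as a block, limma likewise called 0 member probe sets. Erbb2, on chromosome 11, had a single probe set, 1424919_at, which averaged 9.46 ± 0.27 in mutant hearts and 9.48 ± 0.21 in wild-type hearts (SD, n = 3 each), a difference of -0.02 (interval -0.44 to 0.40). Erbb3, on chromosome 10, averaged 7.78 ± 0.32 in mutant and 7.97 ± 0.55 in wild-type hearts at 1434606_at. That difference of -0.19 had a wide interval of -0.91 to 0.53 in this fit, which did not adjust for the letters. A change of some size in either direction was not detectable in it. Egfr, on chromosome 11, differed by -0.23 to 0.10 over its 5 tested probe sets, all with overlapping groups. Its brightest, 1460420_a_at, was the most even of them at 7.43 ± 0.02 in mutant and 7.44 ± 0.06 in wild-type hearts (interval of the difference -0.22 to 0.21).

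Erbb4, the partner of ErbB2 in heart muscle, lies on chromosome 1 (chr1:68031884-69108576) and had 1 probe set here, 1427783_at. It read 3.13, 3.18 and 3.02 in mutant hearts 1 to 3, against 3.28, 3.38 and 3.30 in wild-type hearts 1 to 3. Every mutant heart lay below every wild-type heart. All values were far below 5.38, the limit under which the dimmest 40% of probe sets were left out of the tests, so this probe set gave no usable measure of Erbb4 and its difference of -0.21 was not tested.

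Counted together, 12 of the 17 probe sets, from 6 of the 7 genes, were bright enough to be tested. Between genotypes limma called 0 of the 12 (0% of all 27022 probe sets were called), with 1 of 12 and 316 of 27022 at an unadjusted p under 0.05. Groups did not overlap at 2 of the 12, both lower in the mutant, where 2.27% of all tested probe sets were lower without overlap and 4.67% stood apart in either direction. The median difference of the 12 was -0.05, against 0.01 over all tested probe sets.

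**Figure D2:**
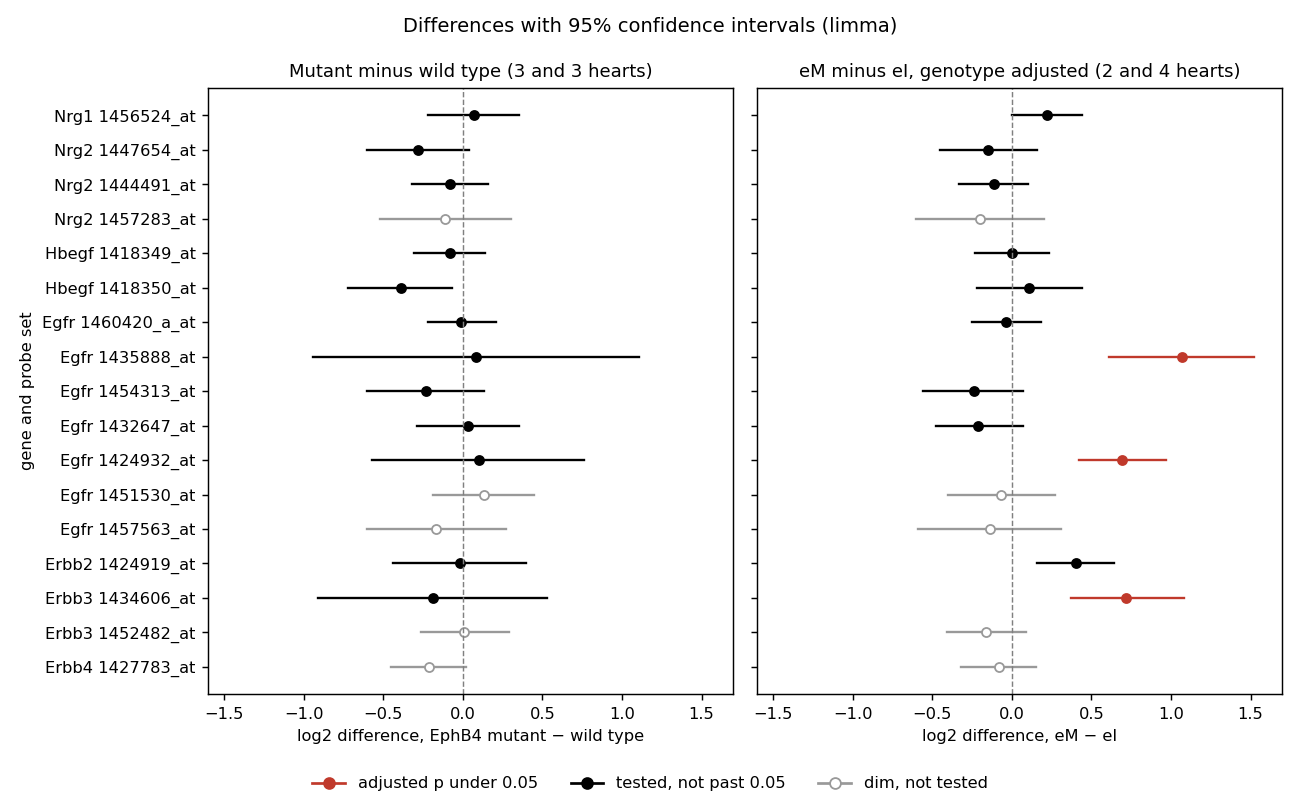
Log2 differences of all 17 probe sets with 95% confidence intervals from limma, mutant minus wild type on the left and eM minus eI adjusted for genotype on the right. All tested intervals of the left panel but that of Hbegf 1418350_at cross 0, and 3 probe sets of Egfr and Erbb3 are marked as called on the right.

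Egfr, at 2 of its 5 tested probe sets, and Erbb3, at its tested probe set, were higher in the eM hearts of both genotypes, and Erbb2 leaned the same way at the edge of the threshold. At Egfr 1435888_at the eM hearts read 6.92 (mutant 3) and 7.03 (wild-type 3), against 6.11 and 5.89 in mutant and 6.13 and 5.51 in wild-type eI hearts. The lowest eM heart was thus well above the highest eI heart, and the difference adjusted for genotype was 1.07 ± 0.19 (SE), or 2.09-fold (interval 0.61 to 1.52; limma, adjusted p = 0.0209). Egfr 1424932_at gave 5.97 and 6.00 in the eM hearts of mutant and wild type, against 5.18 to 5.50 in the 4 eI hearts. Its difference of 0.69 ± 0.11 (SE), or 1.62-fold, passed as well (adjusted p = 0.0169 in limma). The mean of this probe set over the 6 hearts, 5.52, cleared the limit of 5.38 only through the eM hearts, as the eI mean was 5.29. Its place among the tested probe sets thus depended on the difference itself. Without the filter on dim probe sets the adjusted p was 0.0225 (limma). The size was 0.60 between mutant hearts and 0.79 between wild-type hearts.

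The other tested Egfr probe sets did not follow. The brightest, 1460420_a_at, read 7.44 and 7.38 in the eM hearts of mutant and wild type, inside or below the 7.42 to 7.50 of the eI hearts, with a difference of -0.04 (interval -0.25 to 0.18). The 2 remaining ones, 1454313_at and 1432647_at, differed by -0.24 and -0.21 (limma, adjusted p = 0.27 and 0.282). Which part of the gene or which transcript each probe set matches was not given in the tables used here, so the Egfr result holds for 2 of 5 tested probe sets and not for the gene as a whole.

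Erbb3 1434606_at read 8.14 in mutant 3 and 8.57 in wild-type 3, against 7.69 and 7.51 in the mutant and 7.49 and 7.85 in the wild-type eI hearts. Both eM hearts were above all eI hearts, and the adjusted difference was 0.72 ± 0.15 (SE), or 1.65-fold (interval 0.37 to 1.08; limma, adjusted p = 0.0317). It was 0.54 between mutant hearts and 0.90 between wild-type hearts. The dim second Erbb3 probe set, 1452482_at, was not tested and ran the other way by -0.16.

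Erbb2 read 9.77 in mutant 3 and 9.69 in wild-type 3, against 9.31 and 9.30 in the mutant and 9.46 and 9.27 in the wild-type eI hearts. The eM hearts again lay above all eI hearts. The difference of 0.40 ± 0.10 (SE), or 1.32-fold, had an adjusted p = 0.0526 over all probe sets and 0.0487 when each gene was represented by its brightest probe set (limma), so it sat on the threshold.

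These calls rest on 2 eM hearts. Without mutant 3 or without wild-type 3, 0 of the 12 probe sets were called, and the Egfr differences were then 1.21 and 0.92 at 1435888_at and 0.79 and 0.60 at 1424932_at, and that of Erbb3 0.90 and 0.54. Among the eI hearts, leaving out mutant 2 ended the call at 1435888_at (adjusted p = 0.0719), mutant 1 that at 1424932_at (0.0592), and either of them that of Erbb3 (0.0589 without mutant 1, 0.107 without mutant 2). With the Xist level as a covariate the sizes were 1.06 at 1435888_at (limma, adjusted p = 0.0601) and 0.72 for Erbb3 (0.0898). There 1 of the 12 was still called, Egfr 1424932_at, which passed the filter only through the eM hearts.

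RefSeq promoter sequences (GRCm38.p6) were examined for 3 of the 7 genes, Egfr, Erbb2 and Erbb4. The reference used held none for Nrg1 or Erbb3, and promoters of the remaining members were not examined. Egfr was called higher in eM hearts at 2 of 5 tested probe sets, and Erbb2 sat on the threshold. The promoters of Egfr and Erbb2 are shown. Each runs from 250 bases before to 50 bases after the annotated start, at chr11:16751953-16752252 for Egfr and chr11:98412234-98412533 for Erbb2, both on the plus strand. Capitals mark matches, on either strand, to the GC box GGGCGG, the TATA box TATAAA or the CCAAT box.
Egfr: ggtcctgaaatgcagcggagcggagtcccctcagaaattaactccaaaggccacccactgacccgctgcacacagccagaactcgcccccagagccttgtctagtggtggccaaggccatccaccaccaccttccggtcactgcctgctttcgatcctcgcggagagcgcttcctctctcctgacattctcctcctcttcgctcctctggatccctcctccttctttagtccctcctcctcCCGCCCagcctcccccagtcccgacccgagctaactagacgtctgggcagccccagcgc
Erbb2: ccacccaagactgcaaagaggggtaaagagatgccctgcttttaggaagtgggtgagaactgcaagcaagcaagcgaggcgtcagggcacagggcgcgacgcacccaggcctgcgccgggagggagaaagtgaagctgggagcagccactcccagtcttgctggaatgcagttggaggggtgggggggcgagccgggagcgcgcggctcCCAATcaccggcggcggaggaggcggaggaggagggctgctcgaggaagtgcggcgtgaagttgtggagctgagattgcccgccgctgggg
Egfr held 1 GC box match and Erbb2 held 1 CCAAT match, and the letters TATAAA were in neither window. Of 32851 mouse promoters of the same length, 35.7% held GGGCGG, 37.4% held CCAAT and 13.6% held TATAAA on either strand. Both were GC-rich, at 62.3% for Egfr and 66% for Erbb2 against a median of 52.7%. A match is a description of the letters only.

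No ligand probe set was called between the letters. Nrg1 read 5.91 in mutant 3 and 5.88 in wild-type 3, above the 5.57 to 5.75 of the eI hearts, but its difference of 0.22 ± 0.09 (SE) did not pass (limma, adjusted p = 0.172). The Nrg2 probe sets differed by -0.15 and -0.11, and those of Hbegf by 0.00 and 0.11, with adjusted p from 0.441 to 0.996. In all, 3 of the 12 tested probe sets were called higher and 0 lower in eM hearts, against 6.75% and 4.94% of all tested probe sets. Since 2 of the 3 called probe sets belong to Egfr, the calls are a matter of 2 genes. With each gene taken as the mean of its probe sets, neither passed in limma: Egfr differed by 0.15 (adjusted p = 0.266) and Erbb3 by 0.28 (0.0797). Erbb2, with its single probe set, passed in that fit (0.40, adjusted p = 0.0339). Without overlap between eM and eI hearts were 7 of the 12, 5 higher (Egfr 1424932_at again among them) and 2 lower, where 43.1% of all tested probe sets did not overlap.

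**Figure D3:**
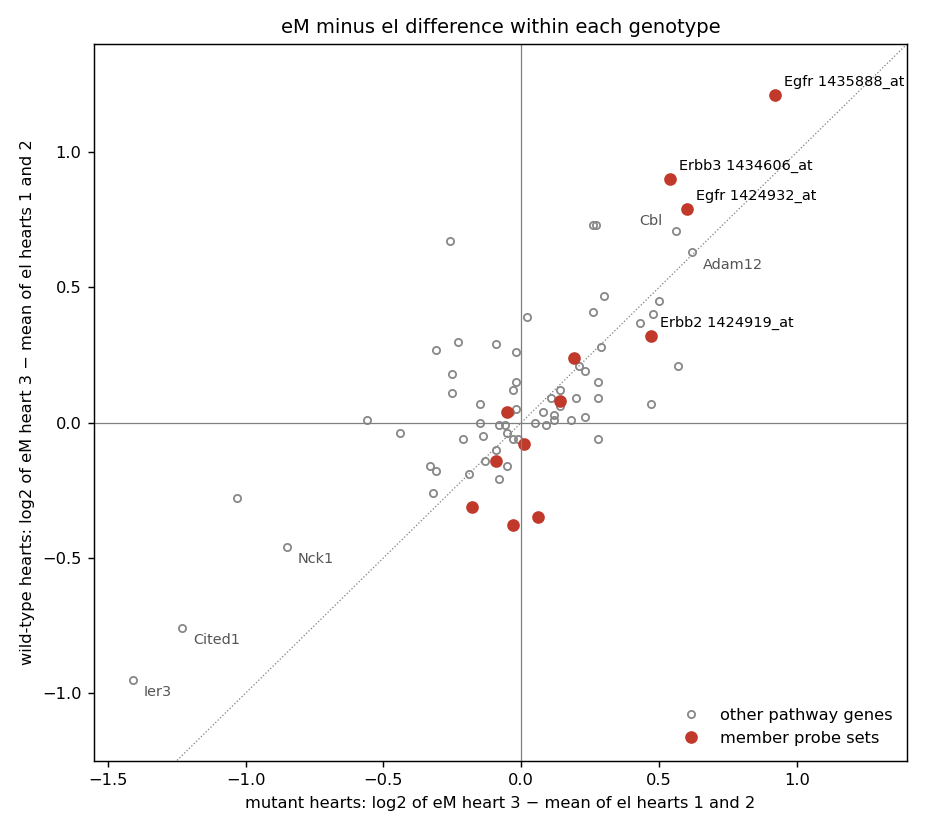
Difference between the eM heart and the mean of the 2 eI hearts, in log2 units, among mutant hearts (x axis) and among wild-type hearts (y axis), for the 12 tested member probe sets (red) and the tested genes of the other pathway lists (open circles); the dotted line marks equal differences. Egfr 1435888_at lies at 0.92 and 1.21, and Erbb3 1434606_at at 0.54 and 0.90, the same direction in both genotypes.

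Whether the mutant difference itself depended on the letters was tested with an interaction term, which rests on a single pair of eM hearts. Limma called 0 of the 12 member probe sets (0% of all 27022), with 0 of 12 and 1438 of 27022 at an unadjusted p under 0.05. The largest estimates were those of Nrg2 1447654_at, 0.40 (interval -0.13 to 0.94), and Erbb3, -0.36 (interval -1.11 to 0.38). Intervals of this width do not show that the genotype difference was alike in both kinds of heart.

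The other genes of the pathway, 1 probe set per gene, showed 0 calls between genotypes in limma (0% of 13572 genes), with 2 of 64 tested pathway genes and 127 of 13572 genes at an unadjusted p under 0.05. A few were called between the letters, where 4.47% of all tested genes were called higher and 5.82% lower in eM hearts. The number called between the letters over all genes depended on which eI heart was left out. It was 158 without mutant 1, 2 without mutant 2, 1937 without wild-type 1 and 1676 without wild-type 2. The calls in these lists rest on 2 eM hearts and were not followed gene by gene through such fits. Of 8 other ErbB ligands only Egf and Tgfa were bright enough to test, and neither was called: Tgfa, a ligand of EGFR, averaged 7.33 ± 0.10 in mutant and 7.31 ± 0.14 in wild-type hearts (SD, n = 3 each), and differed by -0.04 between eM and eI. Ereg was dim, at 3.52 to 3.75. Areg was among the 12 of 172 listed genes without a probe set of their own under that name here.

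Proteases that release ErbB ligands, with their partners and an inhibitor, held 1 call among 9 tested genes. Adam17, the main sheddase of Hbegf, read 9.43 in mutant 3 and 9.50 in wild-type 3 against 8.83 to 9.37 in the eI hearts, a difference of 0.33 that did not pass (limma, adjusted p = 0.225). Adam19, which cleaves neuregulins, differed by -0.27, Adam10 by -0.03 and Bace1, which cleaves Nrg1 in nerves, by 0.12, none called. The gene called was Adam12, picked out after its values were seen, which was 0.63 higher in eM hearts (limma, adjusted p = 0.0302). The list's median was -0.04 between the letters, against -0.03 over all genes, and -0.08 between genotypes.

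Adaptors and kinases downstream of the receptors had 3 genes called higher and 1 lower in eM hearts, of 22 tested, with a median of 0.13. Of the first 4 genes listed none was called: Shc1 differed by 0.02, Grb2 by 0.11, Gab1 by -0.14 and the phosphatase Ptpn11 by 0.06. Named after their values were seen, the 4 called genes were the Ras activator Sos1 (0.44), the kinases Braf (0.48) and Mtor (0.40), and the adaptor Nck1 (-0.66). Between genotypes the list ran from -0.23 to 0.20 with a median of 0.00.

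Negative regulators held 2 calls of 15 tested, both ubiquitin ligases that mark receptors for breakdown. Cbl read 9.59 in mutant 3 and 9.52 in wild-type 3, against 8.66 to 9.16 in the eI hearts, and was 0.63 higher (limma, adjusted p = 0.0362). Cblb, named after its values were seen, was 0.39 higher (0.0439). Errfi1, a feedback inhibitor of EGFR, differed by 0.10, Lrig1, which promotes loss of ErbB receptors, by -0.25 and Rnf41, the ubiquitin ligase of ErbB3, by 0.21, none called. The median was 0.04 between the letters and 0.01 between genotypes.

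Transcription targets of the ERK pathway had 0 called higher and 1 lower in eM hearts, of 8 tested. Etv4 differed by 0.27, Etv5 by 0.06, Egr1 by 0.21 and Fos by 0.50, none called (limma, adjusted p = 0.0543 for Fos). Ier3, picked out after its values were seen, was 1.18 lower on the log2 scale (-1.18, adjusted p = 0.0389 in limma). Trabecular genes, which mark the muscle that depends on this pathway, likewise had 0 higher and 1 lower of 8. Nppa, the atrial natriuretic peptide, differed by -0.25, Nppb by -0.14, Bmp10 by 0.07 and Gja5 by -0.02. The call was Cited1, again named afterwards, at -0.99 (limma, adjusted p = 0.018). Between the letters the medians were 0.08 for ERK targets and -0.12 for trabecular genes, of which 6 of 8 were lower in eM hearts. The summed intensity of the trabecular genes was 31000 to 36900 in eM and 42600 to 46000 in eI hearts. That sum was weighted to the brightest genes, Nppa, Nppb and Cited1, and says little of the dimmer ones. Gene by gene the list ran from -0.99 to 0.50. Between genotypes the medians were -0.14 for ERK targets and -0.04 for trabecular genes, with no call.

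**Figure D4:**
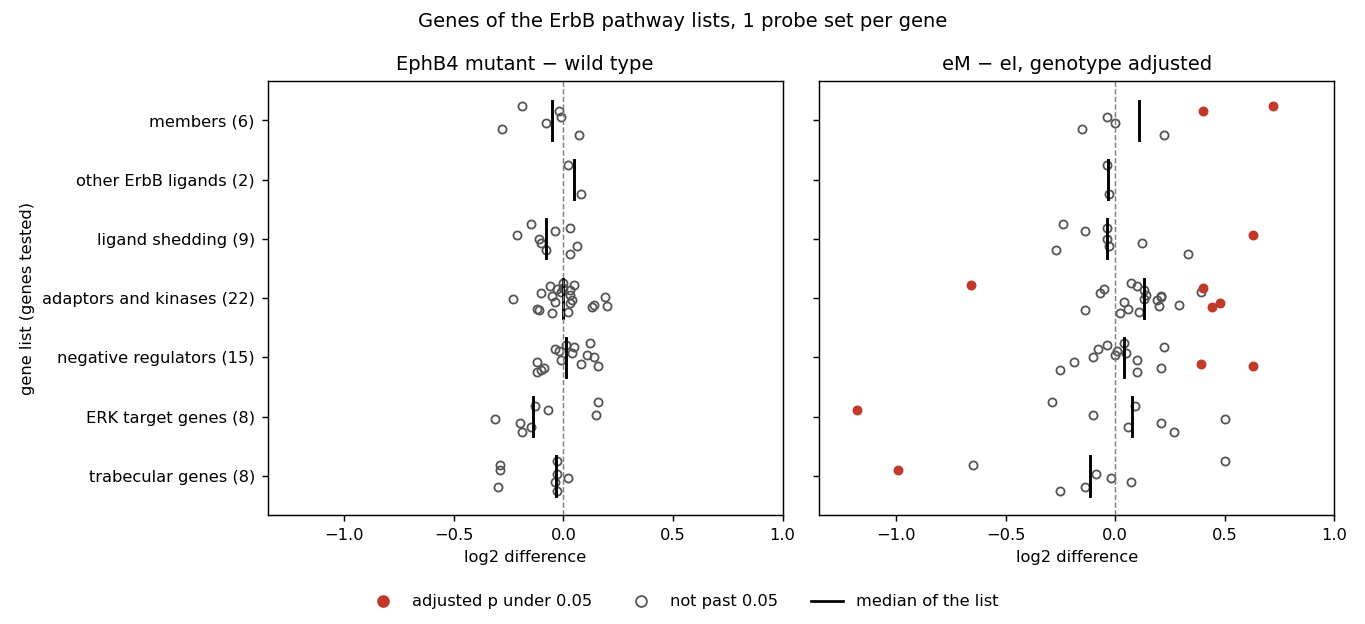
Log2 differences of the tested genes of each list, mutant minus wild type on the left and eM minus eI on the right, with 1 probe set per gene and the list's median as a bar. No gene passes on the left, and on the right 1 to 4 genes pass in each list but that of the other ErbB ligands; Erbb2 is marked as called in this gene fit (adjusted p = 0.0487).

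Some markers of the cell types in which these receptors act were also called between the letters. Heart muscle markers were present at high level, with Tnnt2 at 13.85 to 14.17 and Actc1 at 14.40 to 14.65, which bears out the tissue label, and 3 of 10 were called higher in eM hearts, with a summed intensity of 150000 to 151000 there against 132000 to 140000 in eI hearts. Of these 10, 6 were higher and 4 lower in eM hearts, from -0.19 to 1.64. Of 8 cushion mesenchyme markers 3 were called higher, among them Sox9 (0.72 higher, limma adjusted p = 0.022), while Twist1 differed by -0.14. The list was divided, with 4 markers higher and 4 lower in eM hearts, from -1.47 to 1.11. Its summed levels overlapped, 6860 to 9350 in eM and 7080 to 9220 in eI hearts. Of 9 epicardial markers 2 were called higher and 1 lower (summed 6510 to 6550 in eM, 4550 to 6330 in eI), and of 10 endothelial and endocardial markers 2 were called lower (8780 to 9460 against 11000 to 11900). Both lists were divided. The epicardial one had 6 higher and 3 lower in eM hearts, from -0.82 to 0.94. The endothelial and endocardial one had 3 higher and 7 lower, from -1.18 to 0.41, with Cdh5 differing by -0.24 and Pecam1 by 0.41, neither called. Neural crest, Schwann cell and neuronal markers, cells in which Erbb3 is also active, had 0 called higher and 1 lower of 5 tested (3820 to 3870 against 4120 to 4410), with Sox10 differing by -0.20 and Foxd3 dim. These 5 were divided as well, with 2 higher and 3 lower in eM hearts, from -0.81 to 1.55. Their sum was weighted to the brightest marker, Hand2, which differed by 0.02.

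Called lower in eM hearts were 2 of 6 fibroblast markers (summed 7010 to 11200 in eM, 12900 to 18200 in eI), 3 of 5 erythroid markers (15200 to 16900 against 18600 to 25600), 3 of 5 leukocyte markers (856 to 1190 against 1640 to 1940) and 1 of 7 liver and endoderm markers (391 to 435 against 848 to 5550). Called higher were 2 of 7 smooth muscle and pericyte markers (21600 to 22300 against 16800 to 19100). That list was divided, with 4 higher and 3 lower in eM hearts, from -0.81 to 1.21. Its sum was weighted to the brightest gene, Acta2, which differed by 0.38 and was not called, while Myh11 differed by 0.01. Of 5 tested epithelial markers 1 was called higher (1640 to 2540 against 830 to 986), with Cdh1 dim. That one was Krt8, a keratin, named after its values were seen, which was 1.68 higher, while the other 4 tested differed by -0.30 to -0.09. The part of these cell types in the receptor differences was not tested, and between genotypes limma called 0 of the 77 tested markers (2 at an unadjusted p under 0.05).

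By their pattern over the 6 hearts, the genes nearest to each member among 13571 others were found by Pearson correlation. With only 6 hearts, which share the split by letters, such values are descriptions. For Erbb2 they were Tgif2 (r = 0.9986), Kmt2a (0.9951) and Chd7 (0.9948), and for Erbb3 they were Map3k1 (0.9957), Kcnq5 (0.9953) and Ccdc59 (0.9873). All 6 of these were higher in eM hearts, by 0.23 to 0.97. For Nrg1 they were Arfgef1, 9530057J20Rik and Anapc1 (0.9887 to 0.9872), which were also higher in eM hearts, by 0.21 to 0.27. Nrg2 was nearest to Zfp1 (0.9897), Rassf3 and Ccdc92, Hbegf to Aldh7a1 (0.9923), Csad and Vamp7, and the brightest Egfr probe set to Hoxc6 (0.9882), Tgm5 and Timm10.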

How the data were processed

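The authors deposited log2 intensities that were made with RMA (the robust multi-array method) per the submitters' processing notes, which name no version. Per the labels' protocols, 10 micrograms of total RNA were labelled as biotinylated cRNA. Background correction could not be varied, and levels of different probe sets cannot be compared. Groups and replicate numbers came from titles, the letters from descriptions.

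Of 45101 probe sets, 64 controls were left out; 34945 named 1 gene in the platform annotation, and 34741 of their gene IDs matched RefSeq (GRCm38.p6). The dimmest 40% by mean over the 6 arrays (under 5.38) were not tested. Fits used lmFit and eBayes of limma 3.58.1 (R 4.3.3), with two-sided p adjusted over all features by Benjamini-Hochberg: mutant minus wild type without covariate, eM minus eI with genotype, and their interaction. Members were read from the fit of 27022 probe sets, lists from that of 13572 genes (brightest probe set each). Permutation tests were exact. Same-numbered hearts correlated at 0.18, 0.36 and 0.74 in deviations from group means, where the hearts of number 3 share the letters eM. The eI hearts of unlike number correlated more closely, at 0.47 (mutant 1, wild-type 2) and 0.49 (mutant 2, wild-type 1). The numbers, taken from the titles, were thus not borne out as pairs. The main fits used no pairing, and the replicate block was an alternative. Named genes were the members, the first 4 of each pathway list and the 3 nearest genes by correlation. Of the marker lists the first 2 were planned, but they are given for some lists only. A few others were named after their values were seen. The members and lists were chosen with earlier results of these data known. The fits were tested on simulated arrays. Figures used matplotlib 3.10.9.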

Additional observations from a re-analysis of the deposited data

Results flagged for a closer look

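Adam10, a protease that sheds ErbB ligands, had 1 eI heart far from the others: wild-type 1 read 10.75, against 11.17 to 11.22 in mutants 1 and 2 and wild-type 2. Of 41 probe sets looked at in the 4 eI hearts this was the 1 that stood out by Dixon's criterion at the 95% level, which chance meets in about 1 of 20 groups. None of the 17 member probe sets did.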

How the results depend on the processing

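Between genotypes no member probe set was called under any of 17 alternatives, and the replicate block (0 probe sets and 0 genes called) and the letters as a block changed no call. Leaving out single hearts gave 0 to 2 probe sets and 0 to 2 genes called in all. Signs of small genotype differences turned with array weights, at Egfr 1424932_at (-0.11) and 1435888_at (-0.03), and with the Xist level as a covariate, at Egfr 1435888_at (-0.20) and Nrg1 (-0.01). Leaving out single hearts, these differences ran from -0.10 to 0.36 (Egfr 1424932_at), -0.27 to 0.49 (1435888_at), -0.03 to 0.03 (1460420_a_at), -0.18 to 0.09 (Erbb2), -0.43 to 0.11 (Erbb3) and -0.01 to 0.15 (Nrg1), whereas Hbegf 1418350_at (-0.51 to -0.30) and Nrg2 1447654_at (-0.40 to -0.17) stayed lower in the mutant. Between eM and eI hearts, 3160 probe sets and 1397 genes were called in the main fit. Leaving out single eI hearts moved these counts both ways, though each such fit loses the same degrees of freedom. They were 1208 probe sets and 158 genes without mutant 1, and 815 and 2 without mutant 2. Without wild-type 1 they were 4333 and 1937, and without wild-type 2 they were 3858 and 1676. Between 1 and 4 member probe sets were called in these fits. Without mutant 3 or wild-type 3 a single eM heart was left, so the counts over all probe sets are not given. Leaving out any single heart, eM or eI, the eM minus eI differences ran from -0.35 to 0.06 for Nrg2 1447654_at and from -0.08 to 0.01 for Egfr 1460420_a_at. With the Xist level as a covariate 1114 probe sets, 183 genes and 1 member probe set were called; without the filter on dim probe sets 878 genes; at a threshold of 0.1, 5343 probe sets and 2745 genes. The cause of these changes was not tested. Erbb2 passed under 5 of 14 alternatives (adjusted p from 0.0236 to 0.362), and Egfr 1435888_at, 1424932_at and Erbb3 stayed higher in eM hearts under all of theirs. The stricter filter left out Nrg1, Nrg2 and both of these Egfr probe sets. Signal over background was not given, so the limit it sets is unknown.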
